A study of Mus musculus with 18 samples.

Results

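The 10 genes described here encode the visual pigments of cone photoreceptors and the proteins that carry the light signal in these cells. They are the cone opsins Opn1sw and Opn1mw, the transducin subunits Gnat2, Gnb3 and Gngt2, the phosphodiesterase subunits Pde6c and Pde6h, the channel subunits Cnga3 and Cngb3, and the arrestin Arr3. They were chosen by symbol, as 10 of the 35006 gene names in the count files, and all 10 passed the filter on low counts. Poly(A) RNA of mouse retina was measured in 18 libraries of male animals. WT (C57BL/6J, normoglycemic) had 3 libraries, WT + NACET had 6, Akita (C57BL/6-Ins2Akita/J) had 4 and Akita + NACET had 5. Akita mice are heterozygous for a dominant mutation of Ins2, an insulin gene, in which misfolded insulin harms the beta cells and diabetes follows early in life. NACET, an esterified form of the antioxidant N-acetylcysteine, was dissolved in the drinking water (0.33 mg/mL, 50 mg/kg/day) of the treated mice from 4 to 24 weeks of age, and the other mice received plain water. Both genotypes are on a C57BL/6 background. The labels do not say whether each library came from a separate animal, so p-values measure the spread between these libraries.

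Cones serve colour and daylight vision, and in the mouse they are a small minority among rods. Light turns an opsin into an activator of transducin, transducin releases the catalytic phosphodiesterase from its inhibitory subunit, cyclic GMP falls and the cyclic nucleotide-gated channel closes, and arrestin ends the opsin's activity. Many mouse cones hold both opsins, with the short-wavelength opsin rich in the ventral retina and the middle-wavelength opsin rich in the dorsal retina, while the rest of the cascade is common to all cones. Rods use a parallel set of proteins encoded by other genes.

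The promoter windows of 3 members are shown, and the sequences entered no comparison between groups. The 3 are the 2 opsins, whose ratio is compared between the groups, and Gnat2, one of the members that fell with NACET in Akita. Each window runs from 250 bases before to 50 bases after the RefSeq start, on the gene's own strand, in the build GRCm38.p6. Capitals mark TAATCC, the core recognised by the photoreceptor factors CRX and OTX2, or AGGTCA, the core sequence bound by nuclear receptors, on either strand. The Opn1sw window is chr6:29380464-29380763 (minus strand), the Opn1mw window chrX:74127216-74127515 (plus strand) and the Gnat2 window chr3:108092816-108093115 (plus strand).
Opn1sw: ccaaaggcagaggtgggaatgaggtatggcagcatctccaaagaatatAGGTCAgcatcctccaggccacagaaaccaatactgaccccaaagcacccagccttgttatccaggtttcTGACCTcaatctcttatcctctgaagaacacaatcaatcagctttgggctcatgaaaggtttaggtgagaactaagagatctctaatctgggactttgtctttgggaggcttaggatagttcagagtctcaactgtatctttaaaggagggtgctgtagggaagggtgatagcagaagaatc
Opn1mw: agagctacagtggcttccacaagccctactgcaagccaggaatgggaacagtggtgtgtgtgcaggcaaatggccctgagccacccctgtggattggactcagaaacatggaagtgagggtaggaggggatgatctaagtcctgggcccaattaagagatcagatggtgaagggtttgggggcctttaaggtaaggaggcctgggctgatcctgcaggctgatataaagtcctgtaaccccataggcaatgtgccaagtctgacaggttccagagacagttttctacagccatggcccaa
Gnat2: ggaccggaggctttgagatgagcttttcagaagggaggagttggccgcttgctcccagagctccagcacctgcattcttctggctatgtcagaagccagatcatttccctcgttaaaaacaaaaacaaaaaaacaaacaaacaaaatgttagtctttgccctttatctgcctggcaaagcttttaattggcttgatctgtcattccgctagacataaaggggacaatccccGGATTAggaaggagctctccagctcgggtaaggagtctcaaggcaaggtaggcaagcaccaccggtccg
TAATCC or its reverse complement GGATTA was found in the Gnat2 window, beginning at position -19, and in neither opsin window. AGGTCA or its reverse complement TGACCT was found 2 times in the Opn1sw window, beginning at positions -202 and -132. The 2 motifs do not overlap each other in these windows. Of the 32851 mouse promoter windows of this length, 7.06% held TAATCC and 16.3% held AGGTCA on either strand. The table held windows for 6 of the 10 members, Opn1sw, Opn1mw, Gnat2, Pde6h, Cnga3 and Arr3, with 2 starts for Cnga3. TAATCC was in 1 of these 6 genes and in 4 of the 6 rod genes with a window (Sag, Cnga1, Gngt1 and Cngb1), and AGGTCA was in 1 of the 6 cone genes and 3 of the 6 rod genes. The window of Pde6h, which also fell with NACET in Akita, held neither motif. A match of letters is a description and not a site.

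Gene counts ranged from 11495596 to 17814479 over the libraries. Rod, cone, bipolar, amacrine, horizontal, ganglion and Mueller cell markers were all present, as the label retina implies. Akita replicate 4 stood apart, with the lowest TMM scaling factor of all libraries (0.803). The non-exonic share, the part of the uniquely aligned reads that lay outside annotated exons, averaged 11.5% ± 1.83 (SD) over the 4 Akita libraries and 16.4% ± 2.11 over the 5 of Akita + NACET. In the normoglycemic groups it averaged 16.3% ± 1.24 over the 3 WT libraries and 12.7% ± 2.74 over the 6 with NACET. The summed level of 6 pigment epithelium markers varied widely between libraries. In CPM, which are counts scaled to a common library size, it ran from 36.6 to 131 in Akita, 40.0 to 360.3 in Akita + NACET, 84.9 to 311 in WT and 201 to 740.3 in WT + NACET. None of the 6 was called in Akita vs WT, Akita + NACET vs Akita or WT + NACET vs WT. In Akita + NACET vs WT + NACET 1 of the 6 was lower, beside 7.26% of all genes. The sum of 4 lens markers reached 23052 CPM in 1 WT + NACET library and 2761 in 1 Akita library. The sum of 5 red cell markers ran from 11.9 to 33.9 CPM in Akita and from 35.7 to 97.2 in Akita + NACET. There 2 of the 5 rose, beside 4.51% of all genes tested. The sum of 4 amacrine markers ran from 508 to 684 CPM in WT and from 303 to 462 in Akita. Of these, 3 fell, beside 3.68% of all genes. That of 6 microglia markers ran from 43.7 to 62.9 CPM in WT + NACET and from 23.7 to 41.1 in Akita + NACET. In the latter 4 of the 6 were lower, beside 7.26% of all genes. In Akita vs WT, 1 of 5 endothelium markers and 1 of 6 Mueller glia markers also fell. With NACET in Akita, 1 of the 5 endothelium markers rose. The part of these cells in the cone results was not tested. In bulk RNA, fewer cones and less RNA per cone cannot be told apart, and counts do not show which cells a transcript came from.

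The levels of the 10 genes spanned 2 orders of magnitude. As CPM per kilobase of annotated exon (RPKM) in WT, Opn1sw was highest at 518 ± 68.6 (SD, n = 3), ahead of Arr3 at 198 ± 31.0, Gnb3 at 158 ± 10.3, Opn1mw at 137 ± 28.7 and Gnat2 at 119 ± 19.5. Gngt2 followed at 56.1 ± 2.22, Pde6h at 44.0 ± 8.0 and Pde6c at 40.1 ± 6.32. The channel subunits were lowest, Cngb3 at 6.5 ± 1.64 and Cnga3 at 3.52 ± 0.484. The order was the same with the length of the longest coding transcript. Most steps in this order exceeded the spread, among them those from Opn1sw to Arr3 and from Pde6c to Cngb3. The neighbours Gnb3, Opn1mw and Gnat2 differed by less than their spread, as did Pde6h and Pde6c. The annotated exons of Pde6h cover 7710 bases and its longest coding transcript 5940, more than those of any other member, which lowers its level per length. Opn1sw shares 397 exon bases with Calu and Gngt2 shares 234 with Abi3, each on the opposite strand, and the counting ignored strand, so reads in these stretches cannot be assigned to one gene.

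**Figure D1:**
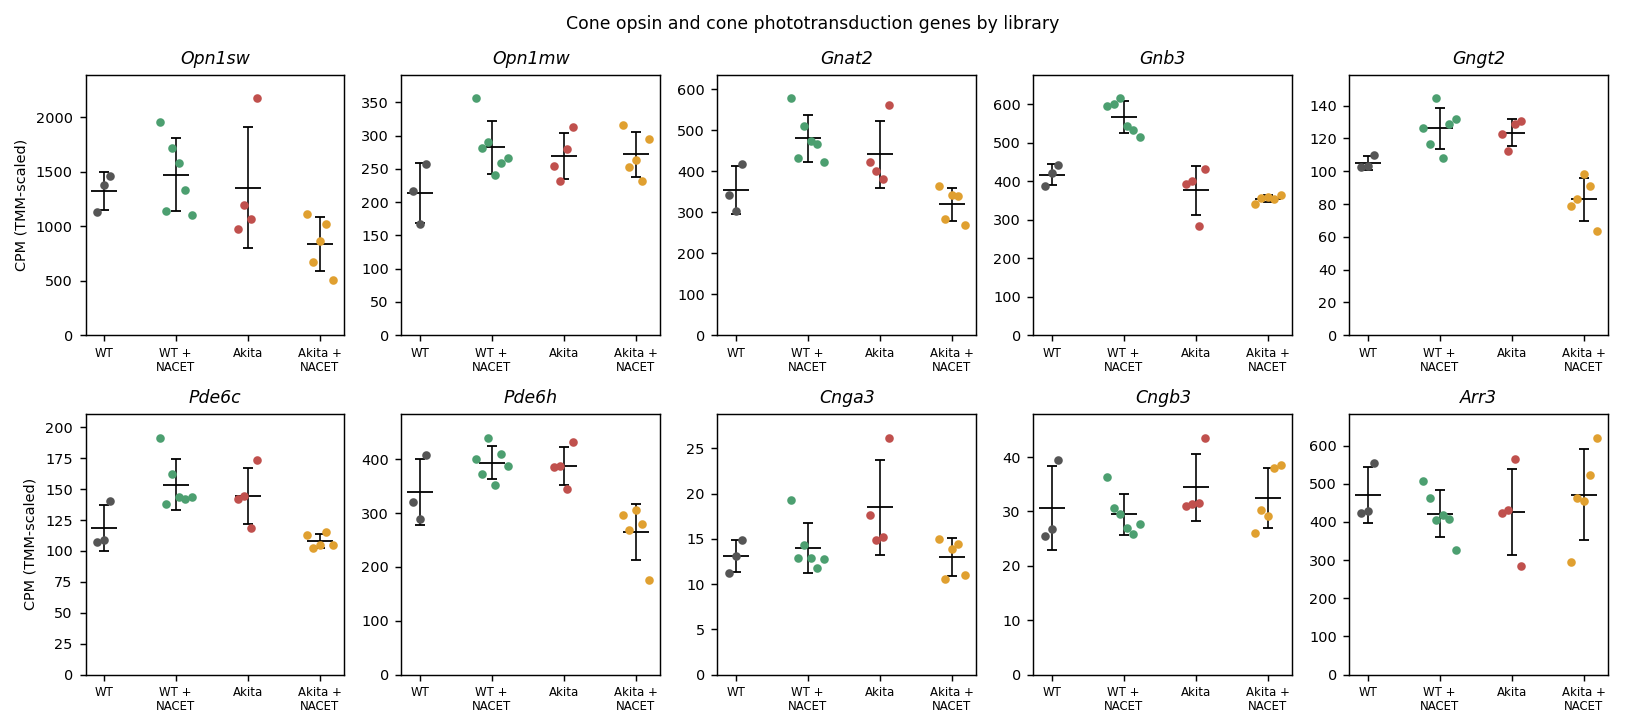
Level of each of the 10 genes in CPM (TMM-scaled, y axis from 0) in the 18 libraries by group, where points are libraries and lines are the mean ± SD. The Akita + NACET points of Gnat2, Gngt2, Pde6c and Pde6h all lie below the Akita points, whereas those of Opn1mw, Cngb3 and Arr3 lie among them.

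To describe the diabetic retina, Akita was compared with WT. None of the 10 cone genes changed past the threshold (edgeR quasi-likelihood test, adjusted p at most 0.05), where 7.64% of all 16183 genes did in either direction. The count was also 0 with DESeq2, and 4 of the 10 had an unadjusted p under 0.05. The share of all genes under this unadjusted cut was not counted, here or in the later comparisons. The median log2 fold change was 0.21, against -0.01 over all genes tested, with 8 of 10 positive and a range from -0.15 to 0.49. Cnga3, the subunit that forms the cone channel with Cngb3, had the lowest adjusted p.

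Cnga3 measured 11.3, 13.1 and 14.9 CPM in WT and 17.6, 14.9, 15.2 and 26.2 CPM in Akita. The lowest Akita library lay just above the highest WT library, with one Akita library far above the rest. The log2 fold change was 0.49 ± 0.20 (SE, adjusted p = 0.120, edgeR). For Opn1sw, the pigment of ultraviolet-sensitive cones, the log2 fold change was 0.03 ± 0.29 (adjusted p = 0.954), and it was -0.29 without Akita replicate 4. Gnb3, the beta subunit of cone transducin, and Arr3 were the 2 members with a negative value, -0.15 ± 0.11 and -0.14 ± 0.22.

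Of the 10 rod genes, 4 rose, where 3.96% of all genes tested rose, among them Gnb1, Cnga1 and Cngb1, with a median of 0.50 over the list. The non-exonic share did not overlap between Akita (9.67 to 13.3%) and WT (14.9 to 17.1%). This share and the genotype cannot be told apart in any Akita vs WT result. Calls of single genes outside the 10 members were not followed under other settings or with libraries left out. Gnb1, the beta subunit of rod transducin, rose by 0.54 ± 0.15 on the log2 scale (adjusted p = 0.0354, edgeR). A difference between cone and rod genes was not tested. Counts of a cone gene and its rod partner within the same library need no scaling between libraries and are given as a description. Neither gene of a pair was shown here to be limited to cones or rods, so the ratios are of genes and not of cells. Gnb3 counts were 2.64% of Gnb1 counts in WT, 2.82% in WT + NACET, 1.63% in Akita and 2.22% in Akita + NACET. On the log2 scale this ratio ran from -5.46 to -5.11 in WT and from -6.13 to -5.67 in Akita, so these groups did not overlap. Cngb3 was 16.5% of Cngb1, its rod partner in the channel, in WT and 12.9% in Akita, again without overlap. Of 8 such pairs, the opsins left out, 3 had every Akita library below every WT library, 5 overlapped and 0 lay above. How often pairs of other genes separate in this way was not counted. The third was Pde6h, with 13.5% of Pde6g in WT and 10.5% in Akita. Among the overlapping pairs, Gngt2 was 2.25% of Gngt1 in WT and 2.52% in Akita, Cnga3 was 1.34% and 1.33% of Cnga1, and Pde6c was 2.31% and 2.18% of Pde6b. Gnat2 was 2.91% of Gnat1 in WT and 2.44% in Akita, and Arr3 was 5.14% and 4.10% of Sag. Which of the 8 pairs were placed first was chosen after their values were seen.

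The question of what NACET does in diabetic animals was addressed by comparing Akita + NACET with Akita. Of the 10 cone genes, 4 fell and none rose, where 5.14% of all genes tested fell. The 4 were Gngt2, Pde6h, Pde6c and Gnat2, members of the transducin and phosphodiesterase steps, each by between 0.42 and 0.58 on the log2 scale. The median over the 10 was -0.44, against -0.0032 over all genes tested, and 8 of 10 were negative. Opn1mw, Arr3, Cngb3 and Gnb3 had log2 fold changes between -0.09 and 0.14.

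Gngt2, the gamma subunit of cone transducin, measured 123, 112, 129 and 131 CPM in Akita. In Akita + NACET it measured 78.7, 83.2, 98.2, 91.0 and 63.4 CPM. Every treated library was below every untreated one, and the log2 fold change was -0.58 ± 0.10 (SE, adjusted p = 0.0161, edgeR). Gnat2, the alpha subunit that binds GTP, measured 423, 401, 381 and 561 CPM in Akita and 363, 284, 342, 340 and 270 CPM in Akita + NACET. These groups did not overlap either, although the gap between the highest treated and the lowest untreated library was narrow. The log2 fold change of Gnat2 was -0.46 ± 0.13 (adjusted p = 0.0321).

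Pde6c, the catalytic subunit of the cone phosphodiesterase, measured 142, 144, 118 and 174 CPM in Akita. In Akita + NACET it measured 113, 103, 105, 115 and 105 CPM, a tight group just below the lowest Akita library. Its log2 fold change was -0.42 ± 0.11 (adjusted p = 0.0291, edgeR). Pde6h, the inhibitory subunit of that enzyme, measured 387, 388, 345 and 432 CPM in Akita and 297, 268, 306, 279 and 175 CPM in Akita + NACET. The treated libraries all lay lower, one of them far lower than the rest. The log2 fold change of Pde6h was -0.55 ± 0.13 (adjusted p = 0.0215).

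The 2 opsins had different values in this comparison. Opn1sw measured 977, 1195, 1071 and 2176 CPM in Akita and 1118, 676, 862, 1021 and 505 CPM in Akita + NACET. The groups overlapped, and Akita replicate 4 was far above every other Akita library. The log2 fold change was -0.70 ± 0.25 (adjusted p = 0.0811, edgeR), and -0.37 without that library. Opn1mw, the pigment of middle wavelengths, measured 254, 231, 279 and 312 CPM in Akita and 316, 253, 264, 232 and 295 CPM in Akita + NACET. These ranges nearly coincided, with a log2 fold change of 0.01 ± 0.13 (adjusted p = 0.955).

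Cnga3 had a log2 fold change of -0.50 ± 0.17 (adjusted p = 0.0650) and its groups overlapped only through the libraries near 15 CPM. DESeq2 with all groups called Cnga3 (-0.51, adjusted p = 0.0376), and so did edgeR without Akita replicate 2 (-0.59, adjusted p = 0.0475). Cngb3, its partner in the channel, ran from 31.1 to 43.6 CPM in Akita and from 26.1 to 38.6 CPM in Akita + NACET, with a log2 fold change of -0.08 ± 0.15 (adjusted p = 0.750). Arr3 ran from 285 to 564 CPM in Akita and from 294 to 621 CPM in Akita + NACET, wide ranges that overlapped almost fully, with a log2 fold change of 0.14 ± 0.19 (adjusted p = 0.648). Whether these members differ from the 4 that fell was not tested.

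The 4 calls moved across the threshold with single libraries, other settings and one technical measure, while the 4 fold changes stayed below 0. With replicate number as a block, only Gngt2 stayed called. Pde6h was then at -0.51, Gnat2 at -0.43 and Pde6c at -0.40 (adjusted p from 0.0540 to 0.0709, edgeR). With only the groups compared, Gnat2 was at -0.44 (adjusted p = 0.0581, edgeR). Without Akita replicate 4 the count of members called was 0, without Akita + NACET replicate 5 it was 1, and without Akita replicate 1 or Akita + NACET replicate 2 it was 2. Without Akita replicate 4 the log2 fold changes were -0.55 for Gngt2, -0.49 for Pde6h, -0.33 for Gnat2 and -0.32 for Pde6c (adjusted p from 0.0567 to 0.116). Without Akita + NACET replicate 5 they were -0.43 for Pde6h, -0.41 for Gnat2 and -0.41 for Pde6c (adjusted p from 0.0546 to 0.0871). The non-exonic share did not overlap between the groups (9.67 to 13.3% in Akita, 14.3 to 19.8% in Akita + NACET), so this share and the group cannot be told apart. With the share as covariate 0 of the 10 members and 0 of all genes were called. The log2 fold changes were then -0.31 ± 0.10 (SE) for Gngt2, -0.29 ± 0.15 for Pde6h, -0.33 ± 0.17 for Gnat2 and -0.39 ± 0.15 for Pde6c (adjusted p from 0.628 to 0.636, edgeR), all still below 0. Across the 18 libraries the correlation of log2 CPM with that share was -0.81 for Gngt2, -0.75 for Pde6h, -0.66 for Gnat2 and -0.57 for Pde6c, and 0.44 for Arr3. On deviations from the group means it was -0.75 for Gngt2, -0.59 for Pde6h, -0.30 for Gnat2, -0.076 for Pde6c and 0.39 for Arr3. These are descriptions, and the libraries pooled in the first set also differ in group.

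**Figure D2:**
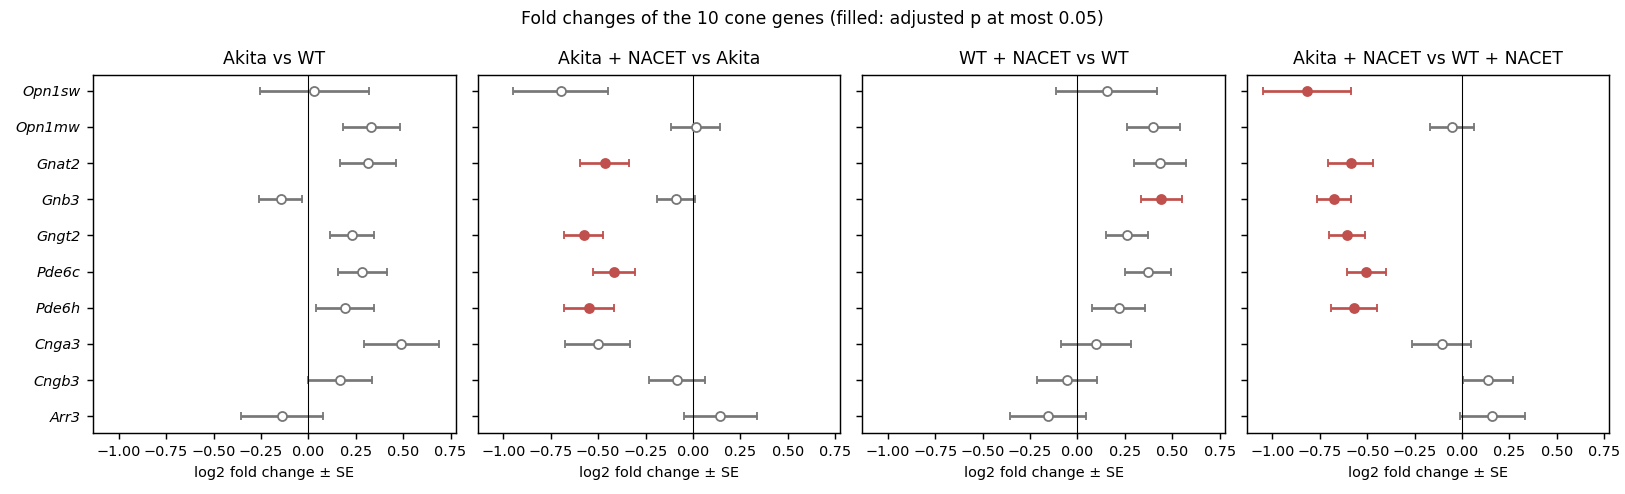
Log2 fold change ± SE (x axis) of the 10 genes in 4 comparisons, where filled points passed an adjusted p of 0.05 in edgeR. From left to right the panels hold 0, 4, 1 and 6 filled points, all of the 4 and the 6 left of 0.

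In normoglycemic animals NACET was compared with water. Of the 10 cone genes, 1 rose, Gnb3, where 0.859% of all genes tested rose, and none fell. The median log2 fold change was 0.24 against -0.01 over all genes, and 5 of 10 had an unadjusted p under 0.05. Gnb3 measured 388, 420.3 and 442 CPM in WT, and in WT + NACET it ran from 513 to 615 CPM with a median of 569. The 2 groups stood well apart, and the log2 fold change was 0.44 ± 0.11 (SE, adjusted p = 0.0406, edgeR). The call was close to the threshold and was lost without any single WT library and without any of WT + NACET replicates 1 to 5 (log2 fold changes from 0.39 to 0.49, adjusted p from 0.0508 to 0.191). It was also lost with the non-exonic share as covariate (0.50, adjusted p = 0.0797) and with the replicate block (0.47, adjusted p = 0.0778).

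Gnat2 ran from 304 to 419 CPM in WT and from 422 to 578 CPM in WT + NACET, with a log2 fold change of 0.44 ± 0.14 (adjusted p = 0.104, edgeR). DESeq2 with all groups gave an adjusted p of 0.0397 for it and called 2 members, and DESeq2 with only these groups called 3, adding Pde6c. Opn1mw measured 216, 168 and 257 CPM in WT, and in WT + NACET it ran from 241 to 356 CPM with a median of 274, for a log2 fold change of 0.40 ± 0.14 (adjusted p = 0.131). Pigment epithelium markers summed to 165 ± 127 CPM (SD) over the 3 WT libraries and to 452 ± 198 over the 6 treated ones, and their part in these values was not tested.

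The interaction asks whether the NACET change in Akita minus the NACET change in WT differs from 0. Of the 10 members, 5 had a more negative change in Akita and none a more positive one, where 10.2% of all genes tested were more negative. Gnat2 differed by -0.90 ± 0.19 (SE, adjusted p = 0.00482, edgeR), Gngt2 by -0.84 ± 0.15 (adjusted p = 0.00236) and Pde6c by -0.79 ± 0.16 (adjusted p = 0.00436). Pde6h differed by -0.77 ± 0.19 and Gnb3 by -0.53 ± 0.15, the latter with its rise in WT and a log2 fold change of -0.09 in Akita. Opn1sw, with -0.85 ± 0.37 (adjusted p = 0.108), and Cnga3, with -0.60 ± 0.25 (adjusted p = 0.0962), did not pass, and Arr3 was the one member with a positive value. With the non-exonic share as covariate 0 members passed. The differences were then -0.74 for Pde6c, -0.68 for Gnb3, -0.66 for Gnat2, -0.38 for Gngt2 and -0.31 for Pde6h (adjusted p from 0.327 to 0.714, edgeR), so those of Gngt2 and Pde6h moved by more than 1.5 times and that of Gnb3 was larger in size.

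All 10 rod genes were more negative in the same interaction, beside 10.2% of all genes tested, with a median of -0.81. In Akita + NACET vs Akita 7 of the 10 rod genes fell, beside 5.14% of all genes, with a median of -0.49, and the 3 that did not pass were Gngt1, Pde6b and Sag. In WT + NACET vs WT the rod count was 0, with 3 at an unadjusted p under 0.05. The rod and cone members of the phosphodiesterase inhibitor pair, Pde6g and Pde6h, fell by 0.73 ± 0.17 and 0.55 ± 0.13 in Akita + NACET.

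Between the 2 treated groups, the genotypes differed at 6 cone genes, all lower in Akita + NACET, where 7.26% of all genes tested were lower. They were Gnb3, Gngt2, Gnat2, Pde6h, Pde6c and Opn1sw. Gnb3 measured 340.3 to 364 CPM in Akita + NACET, below every WT + NACET library, and it had a log2 fold change of -0.68 ± 0.09 (SE) at an edgeR adjusted p = 0.000149. It was also called under each alternative and with each library left out. Opn1sw, with 505 to 1118 CPM against 1108 to 1958 CPM, had a log2 fold change of -0.82 ± 0.23 (adjusted p = 0.0281), and the call was lost without Akita + NACET replicate 2 or 5 or WT + NACET replicate 3 (log2 fold changes from -0.77 to -0.68, adjusted p from 0.0633 to 0.0820) and with no filter on low counts (-0.82, adjusted p = 0.0701). Opn1mw, with 232 to 316 CPM against 241 to 356 CPM, had a log2 fold change of -0.05 ± 0.12. With the non-exonic share as covariate 2 of the 6 calls were left, Gnb3 and Gngt2. The other 4 then had log2 fold changes of -0.49 for Gnat2 (adjusted p = 0.0870), -0.48 for Pde6c (adjusted p = 0.0628), -0.38 for Pde6h (adjusted p = 0.141) and -0.60 for Opn1sw (adjusted p = 0.296). This comparison shares its Akita + NACET libraries with the former ones.

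Akita + NACET and WT were compared to see how far treated diabetic retina stood from healthy retina. None of the 10 members was called, where 0.00618% of all genes were, 1 gene of 16183, and the count was also 0 with DESeq2. At an unadjusted p under 0.05 there were 5, Opn1sw, Pde6h, Gngt2 and Gnb3 with negative values and Opn1mw with a positive value. These 5 have no share of all genes at that cut beside them. Gngt2 measured 102, 103 and 110 CPM in WT and 63.4 to 98.2 CPM in Akita + NACET, without overlap, for a log2 fold change of -0.34 ± 0.11 (adjusted p = 0.9996, edgeR).

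The balance of the 2 opsins was followed as the log2 ratio of Opn1mw to Opn1sw counts in each library, which does not depend on scaling. The mean was -2.64 ± 0.35 (SD) over the 3 WT libraries, -2.37 ± 0.28 over the 6 of WT + NACET, -2.26 ± 0.41 over the 4 of Akita and -1.57 ± 0.52 over the 5 of Akita + NACET. Opn1mw counts were 28.3, 37.5, 30.6, 22.7 and 58.5% of Opn1sw counts in the 5 Akita + NACET libraries. In Akita they were 26.0, 19.4, 26.1 and 14.4%, and in WT 19.2, 12.1 and 17.6%. The Akita + NACET libraries lay above all WT libraries and overlapped with Akita and, through one library, with WT + NACET.

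Akita + NACET exceeded WT + NACET by 0.79 ± 0.26 (SE, two-sided exact permutation p = 0.00866, adjusted p = 0.0433 over 5 comparisons). The difference from WT was 1.07 ± 0.31 (exact p = 0.0357, adjusted p = 0.0893), and that from Akita was 0.69 ± 0.31 (exact p = 0.0714, adjusted p = 0.119). There are 56 arrangements of 5 and 3 libraries, and 35 of 4 and 3. Akita and WT differed by 0.38 ± 0.29 (exact p = 0.20) and the WT groups by 0.28 ± 0.23 (exact p = 0.226). Without Akita + NACET replicate 5, whose ratio was highest, the difference from WT + NACET was 0.59 (adjusted p = 0.0893). That library also had the highest non-exonic share of all (19.8%). Across the 18 libraries the correlation of log2 CPM with this share was -0.52 for Opn1sw and -0.25 for Opn1mw. The part of the share in the ratio was not tested. The adjusted p was above 0.05 for 10 of the 11 libraries left out in turn, when the difference ran from 0.59 to 0.94, and with group medians the difference was 0.71 (adjusted p = 0.0649, exact permutation).

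**Figure D3:**
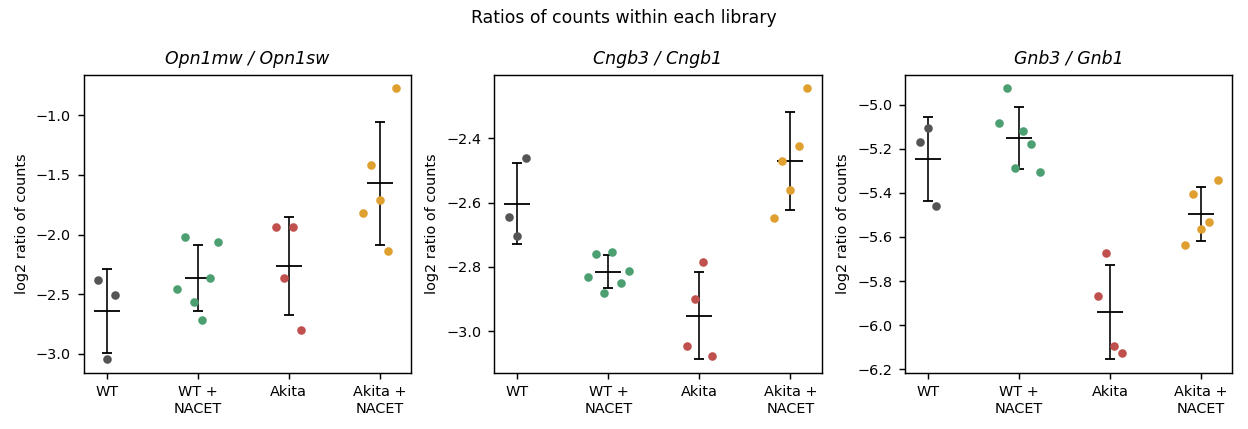
Log2 ratio of counts (y axis) of 3 gene pairs in each library by group, with lines at the mean ± SD. Opn1mw to Opn1sw was highest in Akita + NACET, Gnb3 to Gnb1 was lower in Akita than in WT, and the last 2 pairs were chosen after their values were seen. Cngb3 to Cngb1 ran from -3.08 to -2.79 in Akita and from -2.65 to -2.24 in Akita + NACET.

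The opsin pair depends on the region of the retina, so genes of dorsal and ventral identity were read beside it. None of 7 dorsal genes and none of 4 tested ventral genes was called in any comparison of 2 groups (edgeR). At an unadjusted p under 0.05, Akita vs WT had 2 dorsal and 2 ventral genes, NACET in Akita had 1 of each, and 1 dorsal gene had it in each of the comparisons with WT + NACET. Tbx3, a dorsal factor, had a log2 fold change of 0.50 ± 0.19 (adjusted p = 0.0963) in Akita + NACET vs Akita. Ephb2, a ventral receptor of ephrins, had 0.56 ± 0.20 (adjusted p = 0.0750) there and passed in the interaction (0.88 ± 0.28, adjusted p = 0.0349). The ventral factor Vax2 had -0.41 ± 0.24 (adjusted p = 0.287).

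A further list held 18 regulators of phototransduction, some of which serve rods or cones alone. In Akita vs WT 6 of them rose and none fell, beside 3.96% of all genes that rose. In Akita + NACET vs Akita 7 fell and none rose, beside 5.14% of all genes that fell. The non-exonic share did not overlap between the groups in either of these comparisons, and its part was not tested. Rcvrn, recoverin, fell by 0.81 ± 0.16 (adjusted p = 0.0161, edgeR) and Gucy2f, a guanylate cyclase that restores cyclic GMP, by 0.74 ± 0.14 (adjusted p = 0.0161) with NACET in Akita. Slc24a1, the rod calcium exchanger, fell by 0.63 ± 0.15 (adjusted p = 0.0210). In WT + NACET vs WT none was called, with 3 at an unadjusted p under 0.05.

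Of 14 factors of photoreceptor fate, 5 were higher in Akita than in WT (3.96% of all genes tested), and 2 fell with NACET in Akita (5.14% of all genes tested). Here too the non-exonic share did not overlap between the groups compared. Crx, which drives photoreceptor genes in rods and cones, rose by 0.63 ± 0.16 (adjusted p = 0.0264) in Akita and fell by 0.53 ± 0.14 (adjusted p = 0.0280) with NACET. It measured 1572 CPM in Akita replicate 4, and 952, 896 and 953 CPM in Akita replicates 1 to 3. The calls of these factors, of the regulators and of the rod genes were not followed with libraries left out. Nrl, the factor that specifies rods, rose by 0.55 ± 0.15 and fell by 0.49 ± 0.13. Rora, a nuclear receptor, rose by 0.59 ± 0.16 (adjusted p = 0.0317) in Akita and had -0.43 ± 0.14 (adjusted p = 0.0534) with NACET. The 2 comparisons share the Akita libraries.

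Within groups the members varied together to unequal degrees. With group means removed, the correlation of log2 CPM over the 18 libraries was 0.88 for Gnat2 and Cnga3, 0.86 for Opn1sw and Gnat2, and 0.85 for Gnat2 and Pde6c. It was 0.30 for the 2 opsins and 0.55 for the 2 channel subunits. Arr3 had negative values with 8 of the other 9 members, the lowest being -0.45 with Opn1sw. The libraries share depth and composition, so these are descriptions. Against rod partners it ran from 0.27 for Arr3 and Sag, the arrestins, to 0.91 for Pde6h and Pde6g, the inhibitory subunits.

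**Figure D4:**
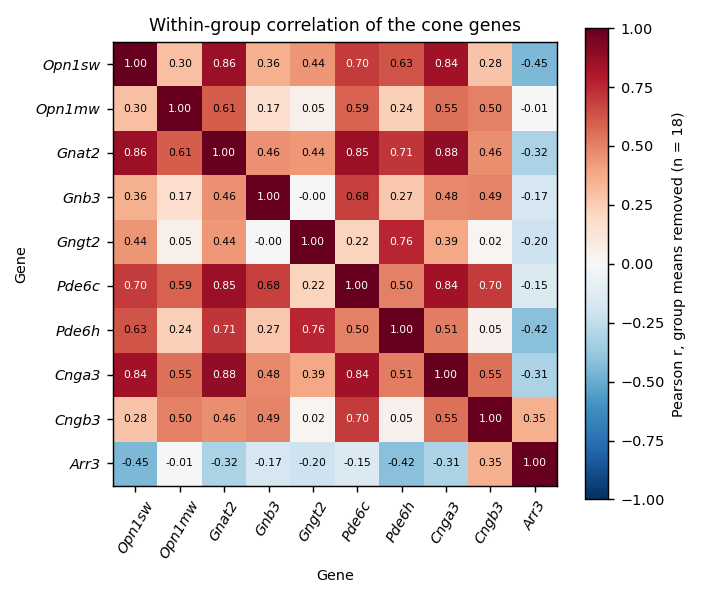
Pearson correlation of log2 CPM between each pair of the 10 genes with group means removed, over 18 libraries, where both axes list the genes and colour runs from -1 to 1. Gnat2, Opn1sw, Pde6c and Cnga3 form a block of values from 0.70 to 0.88, and the row of Arr3 is mostly negative.

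Likeness to the members was also read with group means removed, so it does not describe differences between the groups. Outside the lists, the genes most like the mean of the 10 members over the 18 libraries were Bbs9, Herc3, Glb1l2, Impg1 and Prom1. Bbs9, a subunit of the ciliary BBSome, had r = 0.95, and Herc3 and Glb1l2 each had r = 0.93. Impg1, a proteoglycan of the matrix around photoreceptors, and Prom1, a protein of outer segment discs, each had r = 0.92. Each member is itself part of that mean. Of the members, Gnat2 was closest to the mean (r = 0.93), Pde6h had r = 0.63, Gnb3 0.53 and Gngt2 0.47, and Arr3 was farthest from it (r = -0.069).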

How the data were processed

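Poly(A) RNA of male mouse retina was sequenced by the authors in 18 TruSeq RNA v2 libraries, single end on a NextSeq 500. Reads were aligned with TopHat2 2.1.0 (Bowtie) to mm9 and counted over exons with HTSeq 0.11.2 without regard to strand. The annotation release is not given in the sources used here. The deposited values are raw read counts per gene, with no scaling.

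Each file held 35006 gene names, 5 summary entries and 1 unnamed entry (0.00544% of counts on average), which was left out, as were 206 ribosomal RNA genes (0.977% on average). Groups came from the sample titles. Counts were tested by quasi-likelihood (edgeR 4.0.16 under R 4.3.3, TMM, minimum count 10, minimum total 15, robust dispersion, 4 groups in 1 fit), over 16183 genes with Benjamini-Hochberg adjustment and a threshold of 0.05. The SE of a fold change was derived from the F statistic. The opsin ratio was tested by exact permutation. Gene lengths are from GENCODE vM1 (mm9) and promoter windows from RefSeq (GRCm38.p6). The common dispersion was 0.0347 (BCV 0.186), and intervals cover these libraries only. No replicate pair agreed within sampling noise (lowest chi-square per gene 4.82). The scripts were tested on simulated data. Alternatives were DESeq2 1.42.0, edgeR with only the groups compared, other size factors and filters, and rRNA genes kept. Further ones were a replicate block, the non-exonic share of reads as covariate, and each library left out. For single genes these alternatives were read for the 10 members only. Named genes are the 10 members, their rod partners and at most 3 genes of each other list with the smallest p in the first 3 comparisons. The members, lists and tests were chosen with earlier results of these data known. The results of 1 rod gene are not reported here.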

Additional observations from a re-analysis of the deposited data

Results flagged for a closer look

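In each group of 4 or more libraries the highest and lowest value of each member was set against Dixon's 95% critical value, 33 groups in all with the opsin ratio, of which chance flags about 1 in 20. There were 2 libraries that stood out. Cnga3 measured 19.3 CPM in WT + NACET replicate 1, where the next library had 14.3, and Cngb3 measured 43.6 CPM in Akita replicate 4, where the next had 31.5.

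The NACET change differed between the genotypes at 5 members by the interaction term (edgeR). The change in Akita minus the change in WT was -0.90 on the log2 scale for Gnat2 (adjusted p = 0.00482), -0.79 for Pde6c (adjusted p = 0.00436), -0.77 for Pde6h (adjusted p = 0.0121), -0.84 for Gngt2 (adjusted p = 0.00236) and -0.53 for Gnb3 (adjusted p = 0.0177). With each library left out, between 4 and 5 members passed.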

How the results depend on the processing

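The replicate numbers are not said to pair the libraries. Deviations from group means correlated between -0.33 and 0.34 over 22 same-number pairs, 4 of them above 0.1. Pairs of unlike number were not correlated beside them, so these values do not settle whether the numbers pair the libraries. With the replicate block 1 member was called in Akita + NACET vs Akita (Gngt2) and 0 in WT + NACET vs WT, and the block changed no other count of members called. With the non-exonic share of reads as covariate 0 members were called in Akita + NACET vs Akita, 0 in WT + NACET vs WT, 2 in Akita + NACET vs WT + NACET and 0 in the interaction. In WT + NACET vs WT, DESeq2 called 2 members with all groups and 3 with only the groups compared. With 1 library left out the count ran from 0 to 5 in Akita + NACET vs Akita, 0 to 1 in WT + NACET vs WT, 5 to 6 in Akita + NACET vs WT + NACET and 4 to 5 in the interaction, and was 0 in the other 2 comparisons. The difference of the opsin ratio between Akita + NACET and WT + NACET was 0.71 with group medians (adjusted p = 0.0649) and from 0.59 to 0.94 with 1 library left out, when its adjusted p was above 0.05 for 10 of 11 libraries. The other size factors and filters and the rRNA genes moved no count by over 1.5 times.

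Of 60 fold changes of single members, 20 changed sign in some setting, and none of these was called with either sign. Under the covariate the log2 fold change in Akita vs WT was -0.32 for Opn1sw, 0.11 for Arr3, -0.072 for Pde6h and -0.035 for Gngt2. That of Arr3 was -0.12 in Akita + NACET vs Akita, 0.013 in WT + NACET vs WT, -0.017 in Akita + NACET vs WT, -0.030 in Akita + NACET vs WT + NACET and -0.13 in the interaction, and that of Opn1sw was -0.078 in WT + NACET vs WT. With the replicate block Opn1sw was at -0.13 in Akita vs WT and Arr3 at -0.0061 in Akita + NACET vs WT. With a mean count of at least 50, Cngb3 was at 0.0040 in the interaction. With 1 library left out, Arr3 ran from -0.30 to 0.011 in Akita vs WT, from -0.0059 to 0.31 in Akita + NACET vs Akita and from -0.11 to 0.15 in Akita + NACET vs WT. Cnga3 ran from -0.11 to 0.10 in Akita + NACET vs WT, from -0.16 to 0.0076 in Akita + NACET vs WT + NACET and from -0.019 to 0.20 in WT + NACET vs WT. Cngb3 ran from -0.15 to 0.050 in Akita + NACET vs Akita, from -0.032 to 0.33 in Akita + NACET vs WT, from -0.17 to 0.18 in WT + NACET vs WT and from -0.24 to 0.11 in the interaction. Opn1mw ran from -0.052 to 0.093 in Akita + NACET vs Akita and from -0.11 to 0.026 in Akita + NACET vs WT + NACET, Opn1sw from -0.29 to 0.16 in Akita vs WT and Pde6c from -0.20 to 0.018 in Akita + NACET vs WT. Counted once per member, comparison and setting, a call was lost 43 times and gained 5 times, while 1048 entries kept their sign and status. The cause was not tested.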
